A study of Mus musculus with 10 samples.

Results

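Asprv1, Tns4, Sema3b and Angptl2 are the 4 genes described here, picked as the strongest risers in germ cells of GRTH-KI mice. They rank 1 to 4 among genes called up whose KI mean reached 100 normalized counts and whose libraries did not overlap between genotypes. They are 4 of the 15507 genes listed, and all 4 passed the filter on low values, as did 15389 genes in all. The libraries came from the testis germ cells of 5 wild type (WT) and 5 homozygous GRTH Knock-In (KI) mice, each 45 days old, with 1 library per mouse. In KI mice a human GRTH gene bearing the R242H substitution takes the place of Ddx25, the mouse gene of this testicular RNA helicase. The preparation was made by collagenase and trypsin digestion of seminiferous tubules and straining, so each library held RNA of spermatogonia, spermatocytes and spermatids together with whatever somatic cells came through. The question was how RNA levels differ between KI and WT when spermatids fail to elongate. Because the 4 genes were chosen from this very comparison on these libraries, their values are given as a description and no test of them is reported.

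The 4 genes are not known as a pathway of their own. Asprv1 encodes a retroviral-like aspartic protease of the outer epidermis, where it processes profilaggrin, a precursor of the skin barrier. Tns4 encodes the shortest tensin, an adaptor of focal adhesions that has the SH2 and PTB domains of its relatives and lacks their actin-binding part. Tensins link the cytoplasmic tails of beta integrins to signalling and to the actin cytoskeleton. Sema3b encodes a secreted class 3 semaphorin, a guidance cue that binds neuropilins and signals through plexins. Angptl2 encodes a secreted angiopoietin-like glycoprotein that binds integrins, chiefly Itga5 paired with Itgb1, and the immune receptor Pirb. In adult testis the germ cells are best known for stage-specific programs of meiosis and spermatid remodelling, and secreted guidance cues and adhesion adaptors are better known from somatic cells and epithelia.

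The bases upstream of the start site are shown for the 2 genes whose promoter was in the RefSeq table (GRCm38.p6), as a way to see what the 2 genes have in common in sequence. The promoter of Asprv1, 250 bases before its start at chr6:86627924-86628173 on the plus strand, had a GC content of 56.4%, and that of Angptl2, at chr2:33215711-33215960 on the plus strand, 66.8%, against a median of 52.4% over the 32851 promoters of the table. Capitals mark every match, on either strand, to 3 motifs. These were the CCAAT box, the GC box of Sp1 (GGGCGG) and the androgen response element core (AGAACA).
Asprv1: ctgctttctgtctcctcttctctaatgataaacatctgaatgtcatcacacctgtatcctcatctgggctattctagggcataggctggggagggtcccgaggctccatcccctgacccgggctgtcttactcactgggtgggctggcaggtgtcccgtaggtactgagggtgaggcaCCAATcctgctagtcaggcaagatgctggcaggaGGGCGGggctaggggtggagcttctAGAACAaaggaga
Angptl2: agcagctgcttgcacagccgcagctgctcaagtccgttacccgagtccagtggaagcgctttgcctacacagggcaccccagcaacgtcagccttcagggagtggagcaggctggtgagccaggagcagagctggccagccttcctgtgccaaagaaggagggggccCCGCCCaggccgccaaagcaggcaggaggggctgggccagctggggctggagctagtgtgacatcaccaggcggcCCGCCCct
Asprv1 had 1 CCAAT box at position -72 and 1 GC box at -38, counted from the start site to the first base of the match, and 1 AGAACA at -13. Angptl2 had 2 GC boxes, at -83 and -8, and neither of the other 2 marked motifs. Among all promoters of this length 33.8% held CCAAT, 32.7% held GGGCGG and 16.1% held AGAACA. E-boxes (CANNTG), which are not in capitals, occurred 4 times in Asprv1 and 3 times in Angptl2, and in 66.2% of all promoters. Neither window held TATAAA (12.4% of all promoters), the cAMP response element TGACGTCA (1.55%), the AP-1 site TGANTCA (6.75%) or the TEAD site GGAATG (12.6%). No marked motif overlapped another or an E-box. GC boxes were thus the marked motif that the 2 promoters shared, and they are common in promoters generally.

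Each value below is a normalized count, the number of reads on a gene divided by the size factor of its library. A WT library held 13323024 to 16422347 recovered reads on genes, and a KI library held 12722086 to 15500582. A gene without a read in a library can still have up to 3 reads at this depth, which is 2.61 to 3.62 normalized counts, and this limit and all counting intervals cover counting error only. Ddx25, the targeted gene, ranged from 5198 to 11101 in WT and from 1.84 to 194 in KI, so every library matched its label. Within KI, Ddx25 was at 146, 194 and 161 in libraries 1 to 3 and at 2.88 and 1.84 in libraries 4 and 5. Libraries 1 to 3 and libraries 4 and 5 also lay apart on the second principal component in both genotypes, from -9.51 to -2.82 and from 6.44 to 11.7, and ratios are therefore given within each set as well.

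Asprv1 was close to absent in WT and well expressed in KI. It is an intronless gene, a single exon on chromosome 6 from 86628174 to 86629704 (mm10, plus strand). Its normalized count in WT libraries 1 to 5 was 3.14, 2.31, 20.5, 3.01 and 5.65. In KI libraries 1 to 5 it was 423, 492, 498, 351 and 242. The lowest KI library stood 11.8 times above the highest WT library, so the genotypes did not overlap, and 3 of the 5 WT libraries had 3 reads or fewer. The mean went from 6.93 ± 7.71 (SD, n = 5) in WT to 401 ± 107 in KI, a ratio of 57.9. WT library 3 alone held 17 of the 31 WT reads, and without it the WT mean was 3.53 and the ratio 114. Pooled over libraries, 2156 reads in KI against 31 in WT gave a depth-adjusted ratio of 60.9 with an exact 95% counting interval of 42.8 to 89.8. The ratio was 54.4 within libraries 1 to 3 and 68.5 within libraries 4 and 5. On the scale of log2(normalized count + 1), which understates changes of low genes, the difference was 6.02 (SE 0.41), the largest of all genes tested.

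Tns4 had the lowest WT level of the 4 genes. It lies on chromosome 11 from 99065678 to 99089306 (minus strand), with 4 annotated transcripts of up to 13 exons. WT libraries 1 to 5 gave 3.14, 2.31, 7.25, 3.01 and 6.59 normalized counts. The KI libraries gave 119, 139, 142, 110 and 84.6 in the same order. Every KI library was at least 11.7 times the highest WT library, and in WT libraries 1, 2 and 4 the reads for Tns4 equalled those for Asprv1. Means were 4.46 ± 2.28 in WT and 119 ± 23.5 in KI (SD, n = 5 each), a ratio of 26.6. The depth-adjusted ratio from 638 and 21 pooled reads was also 26.6, with a counting interval of 17.2 to 43.3. The ratio of means was 31.5 within libraries 1 to 3 and 20.2 within libraries 4 and 5. The log2 difference of 4.53 (SE 0.28) was the second largest of all genes tested.

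Sema3b was low but detected in every WT library. It spans chromosome 9 from 107597674 to 107609241 (minus strand), with 14 annotated transcripts of up to 21 exons. Normalized counts in WT libraries 1 to 5 were 13.6, 6.94, 24.2, 11.0 and 16.9. In KI they were 142, 129, 124, 129 and 115. KI libraries were tightly grouped, the highest being 1.24 times the lowest, and all of them stood at least 4.76 times above the highest WT library. The mean rose from 14.5 ± 6.50 to 128 ± 9.99 (SD, n = 5 each), a ratio of 8.79 with a counting interval of 6.90 to 11.5 around the depth-adjusted ratio of 8.86 from pooled reads. Libraries 1 to 3 gave 8.83 and libraries 4 and 5 gave 8.72. Its log2 difference was 3.15 (SE 0.25).

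Angptl2 had the highest WT level per kilobase of the 4 and the smallest rise. It lies on chromosome 2 from 33215961 to 33247714 (plus strand), with 4 annotated transcripts of up to 5 exons. WT libraries 1 to 5 were at 32.4, 30.1, 51.9, 22.1 and 35.8 normalized counts. KI libraries were at 267, 318, 316, 279 and 182. The gap between the genotypes was 3.51-fold from the highest WT to the lowest KI library. Means were 34.5 ± 11.0 and 272 ± 55.2 (SD, n = 5 each), a ratio of 7.91, with a counting interval of 6.79 to 9.48 from 1463 and 160 pooled reads. The ratio of means was 7.88 within libraries 1 to 3 and 7.97 within libraries 4 and 5. Its log2 difference was 2.97 (SE 0.21).

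**Figure D1:**
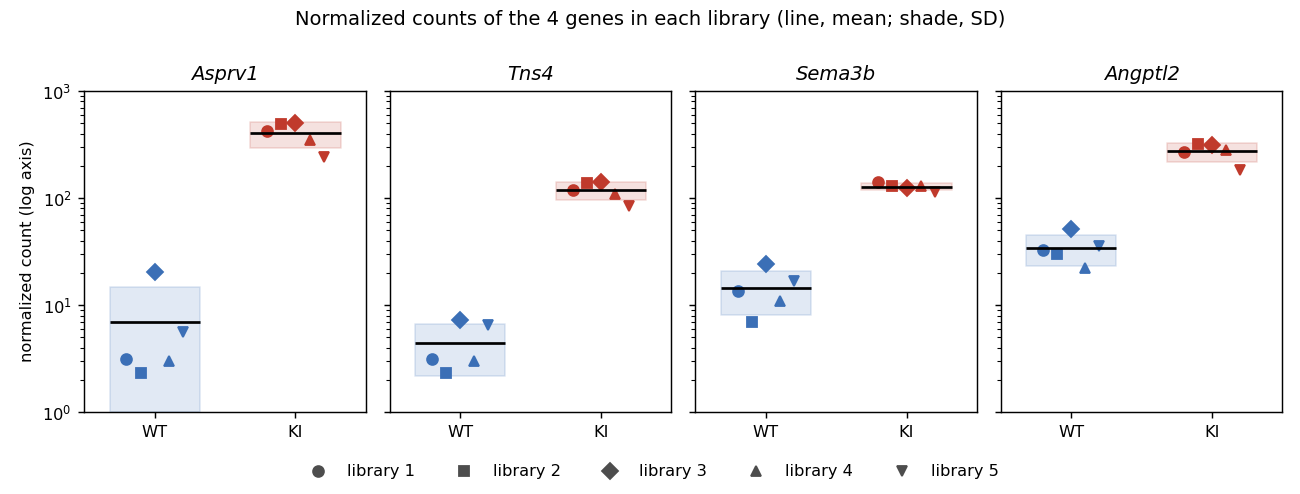
Normalized count (log axis) of Asprv1, Tns4, Sema3b and Angptl2 in the 5 WT and 5 KI libraries, with the marker shape giving the library number, the line the mean and the shade 1 SD on each side, cut at the lower end of the axis for Asprv1 in WT. The genotypes did not overlap for any of the 4 genes, WT library 3 was the highest WT point and KI library 5 the lowest KI point in each panel.

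All 4 genes had every KI library above every WT library, which a choice for a large rise favours and which 6.80% of all tested genes met. WT library 3 was the highest WT library for all 4, and KI library 5 was the lowest KI library for all 4. Among the 645 genes called up without overlap, WT library 3 was the highest WT library for 22.6% and KI library 5 the lowest KI library for 25.0%. For Asprv1, Tns4 and Sema3b the whole order of the WT libraries was the same, 3, 5, 1, 4 and 2 from high to low, and Angptl2 differed from it only in the order of the lowest pair. Asprv1 and Tns4 also shared the order of the KI libraries, 3, 2, 1, 4 and 5. The KI order differed for Sema3b, at 1, 4, 2, 3 and 5, and for Angptl2, at 2, 3, 4, 1 and 5, so that beyond the lowest library the KI libraries were not in 1 order for the 4. Between libraries of the same number the ratio of KI to WT ranged from 24.3 to 213 for Asprv1 and from 12.8 to 60.1 for Tns4. It ranged from 5.11 to 18.5 for Sema3b and from 5.09 to 12.6 for Angptl2. Library number 2 gave the highest ratio for Asprv1, Tns4 and Sema3b, and number 4 for Angptl2.

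Levels of different genes were compared as normalized counts per kilobase of annotated exon. The length was that of all annotated exons of a gene merged, which can exceed the transcript expressed. For Angptl2 it was 6286 bases, against 3339 in its sequence searched for like copies below. Orders and percentiles per kilobase depend on this choice of length. In KI, Asprv1 was at 259 ± 69.3 per kilobase, apart from the other 3, followed by Angptl2 at 43.3 ± 8.79, Sema3b at 26.7 ± 2.09 and Tns4 at 23.0 ± 4.54 (SD, n = 5 each). Angptl2 overlapped Sema3b in this order, and Sema3b overlapped Tns4. In WT the order was Angptl2 at 5.48 ± 1.75, Asprv1 at 4.48 ± 4.98, Sema3b at 3.04 ± 1.36 and Tns4 at 0.863 ± 0.441. Here the first 3 overlapped their neighbours and Tns4 lay below all libraries of Sema3b. The median tested gene had 63.1 per kilobase in WT and 63.4 in KI. Asprv1 went from the 6.69th percentile of tested genes in WT to the 78.3rd in KI. Tns4 went from percentile 0.138 to 29.2, Sema3b from 3.90 to 32.1 and Angptl2 from 8.67 to 42.0. By merged exon length these 3 thus remained below the median gene in KI.

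Of the 944 genes called up in KI (limma, adjusted p under 0.05 and fold change of at least 1.5), 295 had a KI mean of at least 100 and no overlap, and the 4 genes ranked 1 to 4 among these by log2 difference. Over all tested genes they ranked 1, 2, 6 and 8, and the genes between them, Sln, E130006D01Rik, Kcnh4 and Avil, had KI means of 25.9, 26.4, 81.0 and 37.0. The first genes outside the choice were Btbd35f7, Psd4, Meox1, a homeobox factor, and Esrrb, an orphan nuclear receptor. Their log2 differences were 2.49, 2.46, 2.41 and 2.41, against 2.97 for Angptl2 just inside. Btbd35f7 went from 33.0 ± 6.39 to 193 ± 52.8, and Esrrb from 49.0 ± 14.8 to 256 ± 24.3 (SD, n = 5 each).

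**Figure D2:**
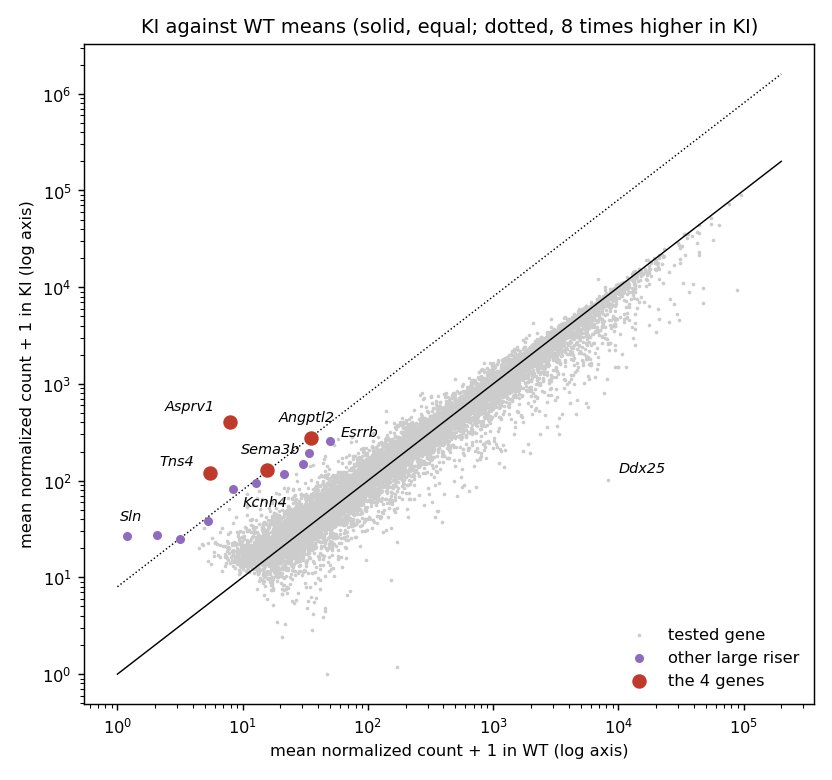
Mean normalized count + 1 in KI (vertical) against WT (horizontal), both on log axes, for each of the 15389 tested genes. The 4 genes in red lie near or above the dotted line of 8-fold, with Asprv1 and Tns4 farthest from it, purple points are the other large risers, and Ddx25 lies far below the solid line of equal means.

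For likeness of pattern, each gene's log2 values were centred on their mean over the 10 libraries and compared by the root mean square difference, in log2 units, so that 0 is an identical pattern. The closest genes outside the 4 to Tns4 were Sln at 0.54, E130006D01Rik at 0.59 and Kcnh4, a voltage-gated potassium channel, at 0.76. The same 3 were closest to Asprv1, at 1.12, 1.26 and 1.39, and Tns4 itself was nearer at 0.85. Sln encodes sarcolipin, an inhibitor of the calcium pump of muscle. It had no read in 4 WT libraries, 1.00 in the remaining WT library and 16.6 to 32.9 in KI. With WT values this near 0, such distances depend on the 1 added before taking log2. Over all alternative runs the log2 difference ranged from 1.79 to 7.28 for Sln and from 1.66 to 4.92 for E130006D01Rik. For Tns4 it ranged from 3.15 to 4.82. Outside the 4, Sema3b was most like Trh (0.38), the gene of thyrotropin-releasing hormone, Mfsd2b (0.45) and Spdef (0.45). Angptl2 was nearer to Sema3b than these, at 0.33. Outside the 4, Angptl2 was most like Spdef, an ETS family factor of secretory epithelia, at 0.20, then Trh at 0.39 and Psd4 at 0.42. Spdef itself was at 4.01 to 15.7 in WT and 45.1 to 84.1 in KI. These values are descriptions over 10 libraries that share the genotype difference on which the 4 genes were chosen.

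Relatives of the 4 genes and the proteins they act with lie outside the 4 chosen genes. Their lists were nevertheless drawn up with earlier results of these data known, so the counts are a description. Over 9 lists of relatives and pathway genes, 76 genes other than the 4 were tested, of which 9 rose (11.8%) and 5 fell (6.58%), with a median log2 difference of 0.13. Over all tested genes 6.13% rose and 8.22% fell, with a median of 0.03. The largest rise among the 76 was 1.20, for Itga5. Scaling to library totals shifted the median of all genes by 0.25 and gave 21 rises and 3 falls among the 76, and libraries 4 and 5 alone gave 4 rises. Among the genes named next, Sema4b (0.63), Sema4g (-0.55), Nrp1 (0.82), Plxna4 (0.64), Angptl4 (0.55), Itga5 (1.23) and Dlc1 (0.60) were not called in libraries 4 and 5 alone. Plxna4 (0.65), Tns2 (0.50), Egfr (0.40) and Dlc1 (0.58) were not called in libraries 1 to 3 alone. These log2 differences kept the sign they had over all libraries, and each subset holds fewer libraries. The share of called genes that rose was 42.7% over all tested genes, 73.1% with library totals and 30.1% in libraries 4 and 5 alone.

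Of the semaphorin ligands, 14 other than Sema3b were tested, and 1 rose and 1 fell. Sema4b, a membrane-bound class 4 semaphorin, went from 108 ± 35.6 to 163 ± 39.6 normalized counts (log2 difference 0.63, SE 0.21, adjusted p = 0.0453), with overlap between genotypes. This call was lost on leaving out any of WT libraries 1 to 4 or KI libraries 3 to 5, with adjusted p up to 0.115. Sema4g fell from 57.4 ± 7.79 to 34.8 ± 6.43 (-0.71, SE 0.18, adjusted p = 0.00909) with no overlap, and was below the fold threshold with library totals. Falls among the ligands numbered 3 with DESeq2 and in libraries 1 to 3 alone, 0 with library totals and in libraries 4 and 5 alone, and 2 or 3 on leaving out WT library 4, WT library 5 or any KI library. Of the secreted class 3 members closest to Sema3b, Sema3c had a log2 difference of 0.09 (adjusted p = 0.778) and Sema3f of -0.25 (adjusted p = 0.382), Sema3e was below the filter, and Sema3a, Sema3d and Sema3g were not listed. The ligands with the highest counts were Sema4a, at 713 in WT and 727 in KI, and Sema5b, at 660 and 705, and neither was called. Per kilobase, Sema3b was the lowest of the 15 tested ligands in WT and the seventh highest in KI.

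Among 9 semaphorin receptors tested 3 rose, none fell, and the median log2 difference was 0.53. Nrp1, a neuropilin that binds class 3 semaphorins, went from 62.2 ± 16.0 to 104 ± 21.8 (0.75, SE 0.20, adjusted p = 0.0126). Plxnb1, a receptor of class 4 semaphorins, went from 142 ± 20.4 to 238 ± 51.1 without overlap (0.73, SE 0.15, adjusted p = 0.00213). Plxna4, a class A plexin, went from 38.6 ± 11.7 to 59.2 ± 6.60 (0.65, SE 0.20, adjusted p = 0.0321) and lost its call without any of WT libraries 1, 3 and 5 or KI libraries 1, 2, 4 and 5. The plexins with the highest counts, Plxnb2 (2640 in WT and 3001 in KI) and Plxna2 (763 and 874), were not called. Leaving out WT library 2 raised the count of receptors that rose to 5. Of 11 downstream signal proteins 2 fell and none rose. Mical3, a flavoprotein that oxidizes actin, fell from 4059 ± 1187 to 827 ± 52.3 (-2.24, SE 0.17, adjusted p = 3.23e-07), and Dpysl3, a collapsin response mediator protein, from 4582 ± 795 to 2639 ± 398 (-0.79, SE 0.13, adjusted p = 0.000549). Dpysl3 kept its adjusted p but not its fold with library totals, at -0.56.

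Of the angiopoietin-like family, Angptl4, a secreted inhibitor of lipoprotein lipase, was the only other tested member of the list, and Angptl1, Angptl6, Angptl7 and Angptl8 were not listed. Angptl4 went from 41.0 ± 7.22 to 68.0 ± 9.06 normalized counts without overlap (0.72, SE 0.17, adjusted p = 0.00627). Angptl4 held 67.9% of the summed level per kilobase of the pair in WT, and in KI Angptl2 was the higher. Among 7 angiopoietins and receptors, Itga5, the alpha subunit of the integrin that binds Angptl2, was the 1 gene called, going from 9.88 ± 4.49 to 23.2 ± 7.08 (1.20, SE 0.32, adjusted p = 0.0140) with overlap. Its partner Itgb1 was at 611 in WT and 670 in KI (0.13, adjusted p = 0.342). Itgav, another integrin alpha subunit, had a difference of 0.45 (adjusted p = 0.0439), below the fold threshold. Pirb, the immune receptor of Angptl2, was not listed.

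The 3 other tensins went different ways. Tns2, a focal adhesion tensin, went from 44.8 ± 7.57 to 74.1 ± 10.5 without overlap (0.72, SE 0.17, adjusted p = 0.00663). Tns1, the tensin with the highest level, had lower levels in every KI library, 7103 ± 862 in WT and 4810 ± 509 in KI (-0.56, SE 0.11, adjusted p = 0.00148), just short of the fold threshold. Tns1 passed that threshold without any of WT library 4, KI library 4 and KI library 5, and at -0.73 in libraries 1 to 3 alone. Tns3 was at 187 ± 27.9 and 231 ± 17.9 (0.31, adjusted p = 0.0869). Per kilobase Tns4 was the lowest tensin in WT, at 0.184% of the summed tensin level against 94.5% for Tns1. Of 15 partners of tensins at focal adhesions 2 rose and none fell. Egfr, the epidermal growth factor receptor, went from 50.9 ± 16.6 to 82.6 ± 13.0 (0.73, SE 0.20, adjusted p = 0.0166). Dlc1, a GTPase-activating protein bound by tensins, went from 45.9 ± 6.90 to 70.1 ± 13.9 (0.59, SE 0.18, adjusted p = 0.0241), a fold so near the threshold that the call was lost without any of WT libraries 1, 2 and 4 or KI libraries 3, 4 and 5. Paxillin (Pxn) and beta-catenin (Ctnnb1), the partners with the highest counts, had differences of 0.18 and 0.14 and were not called.

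Of the 13 other aspartic proteases tested limma called 2 down and none up, whereas DESeq2 called 2 up, edgeR 1 and limma with library totals 3. Sppl2c, an intramembrane protease of spermatids, fell from 5420 ± 1244 to 2271 ± 225 (-1.23, SE 0.14, adjusted p = 1.75e-05). Ddi1, a testis member of the retroviral-like protease family to which Asprv1 is related, fell from 4091 ± 465 to 2033 ± 392 (-1.03, SE 0.14, adjusted p = 7.39e-05). With the library number as a block 1 of these 13 was called up, as 1 was in libraries 1 to 3 alone and without KI library 1, 2 or 4, and leaving out WT library 5 gave 2. Of 18 other genes of the epidermal barrier 14 were not listed, among them Flg, Lor, Ivl, Casp14 and Tgm1, and none of the 4 tested was called (1 fall without KI library 4). Those of the 4 with the highest counts, Cdsn (corneodesmosin) and Tgm3 (a transglutaminase), were at 149 and 45.2 in WT and 157 and 42.3 in KI.

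**Figure D3:**
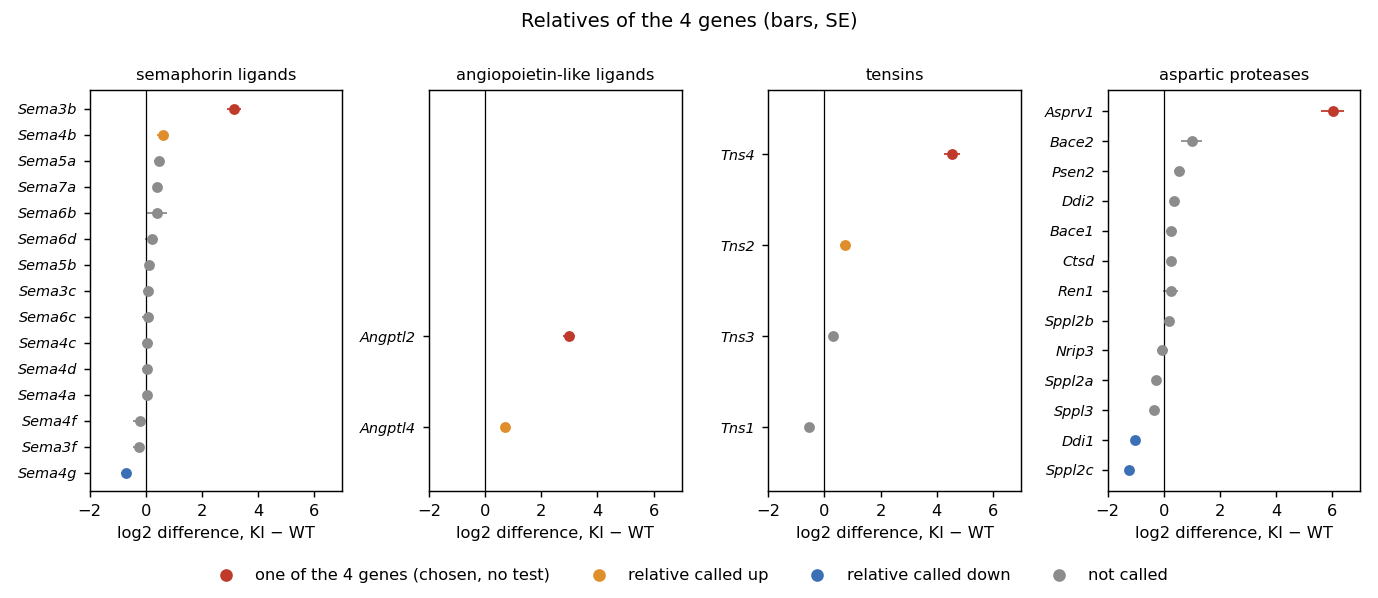
Log2 difference of KI minus WT (horizontal, bars are SE) for tested semaphorin ligands, angiopoietin-like ligands, tensins and aspartic proteases, with 1 aspartic protease not shown. The 4 chosen genes, in red, stand at 2.97 to 6.02, while orange (called up), blue (called down) and grey (not called) relatives lie between -1.23 and 0.99.

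Genes near the 4 on the chromosome were compared to see whether the rises were shared along the genome. Angptl2 lies wholly inside Ralgps1, a gene on the opposite strand that encodes a Ral guanine nucleotide exchange factor, and this was the only annotated gene overlapping any of the 4. The 2 genes share no exonic bases, the promoter window of Angptl2 holds no exon of Ralgps1, and whether the counting used strand is not given in the sources used here. Ralgps1 was at 1238 ± 124 in WT and 1188 ± 218 in KI (-0.07, SE 0.12, adjusted p = 0.723), with overlapping libraries. Tns4 has Igfbp4, a binding protein of insulin-like growth factors, 13023 bases away, and Igfbp4 was the 1 nearest neighbour called. It went from 136 ± 24.5 to 249 ± 41.8 without overlap (0.88, SE 0.16, adjusted p = 0.000787). On the other side of Tns4, Ccr7, a chemokine receptor 54893 bases away, was at 25.9 and 24.5 (-0.16, adjusted p = 0.735).

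Sema3b has its nearest genes at 4636 bases, Ifrd2 (-0.43, adjusted p = 0.102), and at 4885 bases, Gnai2 (0.28, adjusted p = 0.0528), a G protein alpha subunit. It lies in a dense cluster in which 14 tested genes, with Sema3f among them at 72261 bases, were within 100000 bases and none was called. Of these 14, Rassf1 (-0.45), Naa80 (-0.45), Cyb561d2 (0.51) and Tmem115 (0.33), singled out after their values were seen, passed the adjusted p threshold and stayed under the fold threshold. Beside Asprv1, Mxd1, a repressor that pairs with Max, was 17341 bases away and had a difference of 0.11 (adjusted p = 0.391). On its other side 1600020E01Rik, an antisense transcript 63725 bases away, was at 68.2 ± 19.9 and 42.2 ± 16.7 (-0.73, adjusted p = 0.0833). With the library number as a block the same difference had an adjusted p of 0.00530 and was called, and it was also called without KI library 1 or WT library 5 (adjusted p = 0.0408 and 0.0411). Garnl3 and Zbtb34, the genes nearest to Angptl2 outside Ralgps1, had differences of 0.09 and 0.37 and were not called, but Zbtb34 was called in libraries 4 and 5 alone (0.75, adjusted p = 0.0258) and with library totals (0.60, adjusted p = 0.0122). Within 100000 bases of Asprv1, Tns4, Sema3b and Angptl2 lay 4, 5, 14 and 2 tested genes, and 0, 1, 0 and 0 of them were called, beside 14.4% of all tested genes called in either direction. Reads from a near-identical copy were also looked for: none of the 4 had an annotated transcript of another gene with at least 150 bases at 95% identity or more. Tns4 came nearest to this limit, with 146 bases at 95.2% identity to Eif3g and 156 bases at 93.6% to Lix1. The longest like stretch of Sema3b was 1401 bases at 65.5%, with Sema3a, and that of Angptl2 was 617 bases at 73.7%, with Angptl1.

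**Figure D4:**
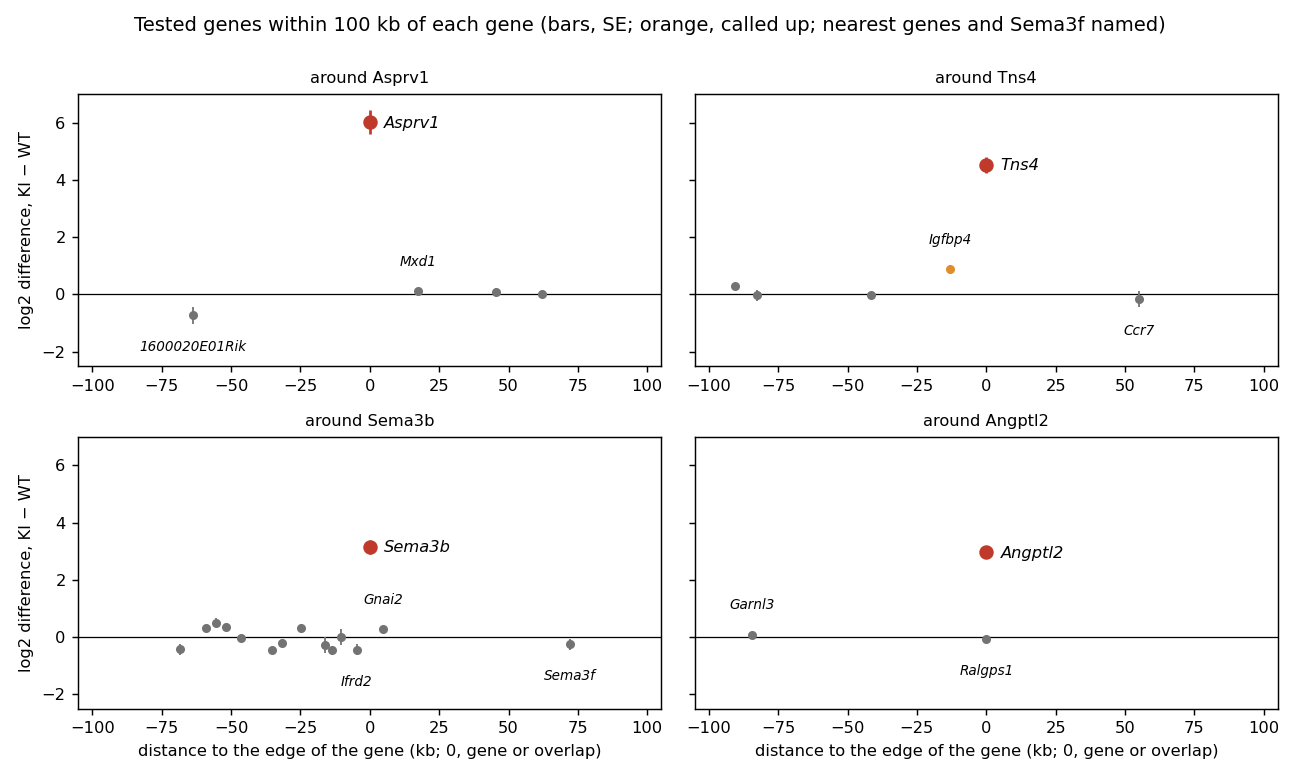
Log2 difference of KI minus WT (vertical, bars are SE) against distance from the edge of each of the 4 genes in kilobases, for all tested genes within 100 kilobases. The 4 genes, chosen for their rise and shown in red, stand at 2.97 to 6.02, the single orange point is Igfbp4 at 0.88, and all other neighbours lie between -0.73 and 0.51.

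Marker genes of other cell types are given beside the 4 genes because the preparation was not sorted. In such mixed samples a change in the number of cells of a type and a change in RNA per cell cannot be told apart. Each listed marker was detected in every library, including all 13 of spermatogonia and spermatocytes, all 10 of Sertoli cells and all 8 of Leydig cells. Elongating spermatid markers such as protamines and transition proteins fell in 10 of 10 tested genes, beside 8.22% of all tested genes, with a median log2 difference of -2.39. Their summed level ranged from 257768 to 458368 normalized counts in WT and from 38445 to 74866 in KI. WT library 3, the highest WT library for all 4 genes, had the highest sum of these markers in WT, and KI library 5 had the lowest in KI. WT library 5, the next highest for all 4 genes, had the lowest sum of these markers in WT. The Sertoli sum was also highest in WT library 3 (11791), with WT library 5 next (11570). In KI it was lowest in library 4 (7556). Apart from the elongating spermatid and Sertoli sums, no marker sum was highest in WT library 3. KI library 5 also had the lowest KI sum of round spermatid, spermatogonia and spermatocyte, keratinocyte and simple epithelium markers. For fibroblast and myoid, Leydig, macrophage and endothelial markers the lowest KI sum was in another library. The cause of these orders was not tested. Round spermatid markers had 1 fall in 10 (Crem, -0.60) and a median of -0.45, and their falls numbered 0 without KI library 5, WT library 1 or WT library 2, 2 without KI library 1, KI library 2 or WT library 3, and 3 without KI library 3. The falls numbered 5 in libraries 4 and 5 alone and 0 with library totals, and 5 of the 10 genes had every KI library below every WT library, as did 10.9% of all tested genes. Of spermatogonia and spermatocyte markers none of 13 was called, with a median of 0.11, and their sums were 13246 to 18410 in WT and 13952 to 17543 in KI.

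Beside the counts of somatic markers, 6.13% of all tested genes rose and 8.22% fell. Fibroblast and myoid markers rose in 8 of 10 tested genes (median 1.05), and their sum went from between 821 and 1323 in WT to between 1828 and 2564 in KI, a ratio of 2.05. Macrophage markers rose in 6 of 10 (median 0.67), with sums of 799 to 1053 and 1205 to 1620, but in 3 in libraries 1 to 3 alone and in 2 in libraries 4 and 5 alone. Leydig cell markers rose in 4 of 8 (median 0.69), with sums of 11042 to 19764 and 15952 to 27283. This Leydig count was 1 without KI library 5, WT library 1 or WT library 3, 2 without WT library 4, 8 without WT library 2, 1 in libraries 4 and 5 alone and 8 with library totals. With the library number as a block the Leydig count was 6. Endothelial markers rose in 2 of 9, Cdh5 and Vwf (1 without KI library 5 and in libraries 4 and 5 alone), with sums of 725 to 969 and 833 to 1392, and Sertoli markers in none of 10 (2 in libraries 1 to 3 alone), with sums of 7109 to 11791 and 7556 to 12463. Of 12 keratinocyte markers Krt1, Krt5, Krt14, Dsc1 and Dsg3 were not listed, and of the 7 tested Sfn rose (1.42) and Dsg1a fell (-0.74). None of the 7 was called up in libraries 4 and 5 alone. None was called down in libraries 1 to 3 alone or with library totals. The sum of the 7 was 1093 to 1287 in WT and 719 to 1076 in KI. Simple epithelium markers had no call among 5 tested, Krt18, Krt19, Krt7 and Cdh1 were not listed, and sums were 1328 to 1568 and 1145 to 1453. The part of these cell types in the rises of the 4 genes was not tested. The named single markers were picked after their values were seen.

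**Figure D5:**
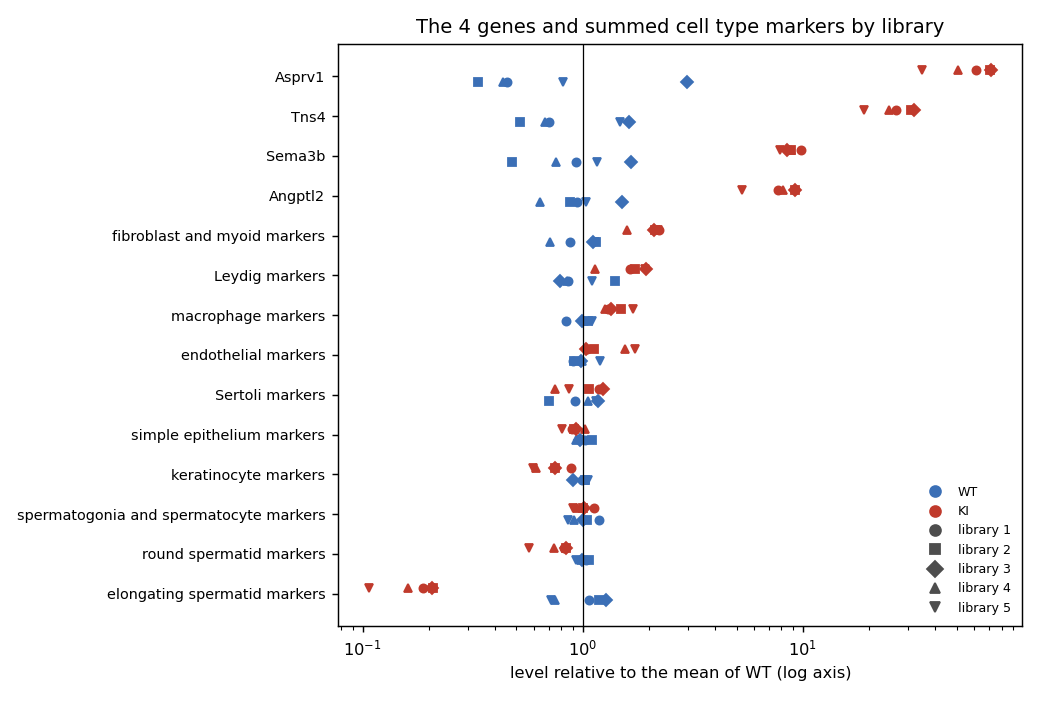
Level in each library divided by the WT mean (log axis) for the 4 genes and for the summed normalized counts of 10 marker lists, with WT in blue, KI in red and marker shapes for library numbers. The 4 genes were chosen for their rise, so where their KI points lie was set by the choice. Among the marker lists the fibroblast and myoid sum reaches a ratio of means of 2.05, and the elongating spermatid sum stands at 0.174.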

How the data were processed

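Poly(A) RNA of testis germ cells from 5 WT and 5 KI mice was sequenced as paired-end reads, 1 library per mouse. Per the study's methods the authors used STAR for alignment to mm10 and the Partek E/M model for counting (RefSeq_v91). They deposited a signal per gene and library, the normalized count, which is the count divided by a DESeq2 size factor. The number of columns without a library was 0. Dividing by the value of 1 read returned whole reads for 100% of values under 5000 reads (tolerance 0.02), and that value differed from the DESeq2 size factor by at most 3.90e-06 percent. Differences were fitted with limma (version 3.58.1, R 4.3.3) with a variance trend on log2(normalized count + 1), over the 15389 genes passing filterByExpr of edgeR (version 4.0.16), with Benjamini-Hochberg adjustment, and called at an adjusted p under 0.05 and a fold of at least 1.5, the study's thresholds. DESeq2 (version 1.42.0) and edgeR's quasi-likelihood test were run on the recovered reads as alternatives, beside other pseudocounts, filters and scalings, a replicate block, libraries 1 to 3 or 4 and 5 alone, and each library left out.

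The 4 genes and the gene lists were chosen with earlier results of these data known. The other genes named were those ranked just outside the 4, the called and the 2 most expressed genes of each list, overlapping and nearest listed genes, and the 3 genes most like each of the 4. Genes of these lists that the text leaves out are not reported here. Libraries of the same number, after removing genotype means, correlated with r of 0.306, 0.105, 0.280, 0.216 and 0.462, each over 0.1, and 3 of the 5 numbers correlated best with their own. The reported fit has no block, and the fit with the number as a block is given beside each call of a named gene that it changed. With the block 1067 genes were called up and 1343 down. The labels do not say what same-numbered libraries share. Replicates differed by more than sampling noise (chi-square per degree of freedom 2.67 to 46.4). On simulated data with 200 changed genes (15337 genes for limma, 15389 for the others) the numbers recovered were 185 by limma, 187 by edgeR and 182 by DESeq2, beside 14, 9 and 21 false calls. The simulated libraries were independent, without the split between libraries 1 to 3 and libraries 4 and 5. Simulated calls used the adjusted p alone, without the fold threshold, so these numbers do not measure the error of the reported calls. Exons were taken from the GENCODE annotation of the same build, and start and end positions from the deposited table, whose end column is 1 past the last base. Promoters came from RefSeq, which matched 2 of the 4 genes, and those of Tns4 and Sema3b were not used here. Protein sequences were not used here.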

Additional observations from a re-analysis of the deposited data

Results flagged for a closer look

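Among the 100 groups of 5 libraries that the 50 named genes give, 6 held a library far from the other 4 of its genotype by Dixon's test, where chance gives about 1 group in 20. Asprv1 was at 20.5 normalized counts in WT library 3, with the next WT library at 5.65 and the lowest at 2.31. Psd4, ranked just outside the 4 genes, was at 67.2 in KI library 5, with the other KI libraries between 123 and 139. Ddi1 was at 1356 in KI library 5, with the next at 2045 and the highest at 2327. Ifrd2, beside Sema3b, was at 57.0 in KI library 5, with the others between 81.7 and 87.6. Igfbp4, beside Tns4, was at 92.1 in WT library 1, with the other WT libraries between 143 and 150. Sln was at 1.00 in WT library 4, which is 1 read, and at 0 in the other WT libraries. KI library 5 accounted for 3 of the 6, and it was also the lowest KI library for each of the 4 genes.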

How the results depend on the processing

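The 4 genes kept their direction under every alternative run. With a pseudocount of 10 the log2 differences of Asprv1, Tns4 and Sema3b were 4.65, 3.15 and 2.53. Over all alternatives they ranged from 4.65 to 6.48 for Asprv1, 3.15 to 4.82 for Tns4, 2.53 to 3.37 for Sema3b and 2.68 to 3.20 for Angptl2. Leaving out 1 library gave 5.801 to 6.476, 4.38 to 4.70, 2.94 to 3.35 and 2.83 to 3.13. Ranks depended on the setting: DESeq2 put them at 2, 4, 9 and 13, edgeR at 2, 3, 7 and 10, and a pseudocount of 10 at 1, 2, 4 and 3. Scaling to library totals gave 2145 genes called up and 789 down, and libraries 4 and 5 alone 471 up. Leaving out 1 library gave 817 to 1020 up and 1136 to 1300 down. Relatives and pathway genes called up numbered 21 and called down 3 with library totals, 4 called up in libraries 4 and 5 alone, and 6 to 11 up and 5 to 7 down with 1 library left out. Neighbours called up numbered 2 with library totals and in libraries 4 and 5 alone. With the replicate block, 1 neighbour was called down (1600020E01Rik, adjusted p = 0.00530), as it was without KI library 1 or WT library 5 (range 0 to 1), and 1 aspartic protease was called up. The block changed no other call of a named gene. Of the relatives, Sema4b lost its call with edgeR, Dlc1 with TMM scaling, and both and Plxna4 with a pseudocount of 10. The cause of these changes was not tested.

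Signs turned only for genes that were not called. In libraries 1 to 3 alone Ccr7 was 0.081, Cdsn -0.025, Garnl3 -0.016 and Plxna2 -0.026. In libraries 4 and 5 alone Ralgps1 was 0.12, Tgm3 0.15, Sema4a -0.018 and Sema5b -0.011. With library totals Ccr7 was 0.062, Ralgps1 0.16 and Tgm3 0.13. With 1 library left out the range was -0.33 to 0.089 for Ccr7, -0.027 to 0.15 for Cdsn and -0.0094 to 0.075 for Sema4a. Counts of reads under 4 in 3 WT libraries limit the ratios of Asprv1 and Tns4.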
